A study of Mus musculus with 9 samples.

Results

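Lcn2, Trf, Hpx and Hmox1 are 4 mouse genes whose products bind iron, carry it, or deal with free heme, and they were followed here across 9 RNA sequencing libraries of AML12 cells, a mouse hepatocyte line. They were taken by gene symbol, 4 of the 6033 genes with a transcript in all 3 deposited tables, and each was counted through 1 curated RefSeq transcript. The 4 were picked with earlier results of these data known, among them their higher levels in PA/OA than in control libraries, so the values against controls are given as a description, with no test. The study had 3 groups of 3 libraries, all from the same line. In the Ang(1-7) group, cells were given Ang(1-7), a short peptide derived from angiotensin, at 100 nM and, 30 min later, 0.2 mM PA with 0.4 mM OA, taken to mean palmitic and oleic acid. The PA/OA group had the same fatty acids for 24 h without the peptide, a usual way to load hepatocytes with fat. Control cells received no treatment. Neither the carrier nor the peptide was given by itself, and an effect of the fatty acids and one of their carrier cannot be told apart. Whether a group's 3 libraries stem from separate cultures is not stated in the labels, and every SD and p-value measures only the spread between these libraries, which may be technical.

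Iron in blood plasma travels bound to transferrin, which cells take up through the transferrin receptor and unload into ferritin stores or into heme and iron-sulfur clusters. Heme set free from hemoglobin or damaged cells is toxic, so the plasma protein hemopexin binds it and brings it to the liver, and heme oxygenase 1 opens its ring to give biliverdin, carbon monoxide and iron. Lipocalin 2 holds iron by binding siderophores, the iron carriers of bacteria, and is made by epithelial cells and neutrophils in inflammation. Transferrin and hemopexin are classic secreted products of hepatocytes. In mice, hemopexin and lipocalin 2 are acute phase proteins, whose genes respond to inflammatory cytokines.

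The RefSeq promoter table (build GRCm38.p6, mouse) held a window for Lcn2 and for Hpx. It held none for Trf or Hmox1, so these windows are shown because they were available and not for the size of any change. Motifs of inflammatory and stress regulators can be read in them. Each run below gives the 250 bases before the annotated start, 5′ to 3′ on the gene's own strand, which is the minus strand for both. Capitals mark matches to the motifs searched.
Lcn2, chr2:32387740-32387989: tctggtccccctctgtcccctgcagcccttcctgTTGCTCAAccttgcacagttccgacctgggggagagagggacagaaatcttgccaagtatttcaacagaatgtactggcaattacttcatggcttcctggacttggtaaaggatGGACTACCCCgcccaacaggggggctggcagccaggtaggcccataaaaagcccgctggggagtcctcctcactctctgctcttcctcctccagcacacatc
Hpx, chr7:105600117-105600366: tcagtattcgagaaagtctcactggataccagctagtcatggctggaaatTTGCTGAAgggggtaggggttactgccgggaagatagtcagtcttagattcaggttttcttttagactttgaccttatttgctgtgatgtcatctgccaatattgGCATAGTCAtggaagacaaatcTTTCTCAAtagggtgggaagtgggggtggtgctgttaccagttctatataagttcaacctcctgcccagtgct

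Motifs were searched on both strands. The letters were GGG, any 5 bases and CC for NF-kB, TTNNGNAA for C/EBP factors, TTCNNNGAA for STAT factors and TGACNNNGC for the antioxidant response element, to which NRF2 and BACH1 bind. The Lcn2 window held 1 C/EBP match at bases -216 to -209 and 1 NF-kB match at bases -102 to -93, counted back from the start site. The Hpx window held C/EBP matches at bases -200 to -193 and -73 to -66 and 1 match to the antioxidant response element at bases -95 to -87. No match overlapped another, and all lay on the opposite strand. Of 32851 windows of this length, 45.8% held the NF-kB letters, 36.8% the C/EBP letters, 7.02% the STAT letters and 10.2% the antioxidant response element letters. A match is a description of letters and not a site of binding.

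The listed counts of the common transcripts came to 24578113 to 28529393 per library. The library Ang(1-7) 2 was unlike the other 8, with r = 0.917 to 0.937 for its log2 levels against each of them; r is taken over genes, and genes are not replicates. Of 15 nervous system markers, 9 were measured in the table of both fatty acid groups. All 9 were above 0 in Ang(1-7) 2 and 3, but only 4 in Ang(1-7) 1 and 3 in every PA/OA library. Their summed level was 198 and 186 CPM, counts scaled to library size, in Ang(1-7) 2 and 3. It was 126 in Ang(1-7) 1 and 132 to 138 in PA/OA libraries, mostly from Mbp. The neurofilament gene Nefl had 923, 477 and 0 counts in Ang(1-7) 2, 3 and 1 and 0 in each PA/OA library. Slc1a2 and Mbp ran otherwise. Slc1a2 had 20, 5 and 2 counts in Ang(1-7) 2, 3 and 1 and 18, 23 and 6 in PA/OA 1, 2 and 3. Mbp had 3139, 3614 and 3108 counts in Ang(1-7) 2, 3 and 1 and 3435, 3428 and 3346 in PA/OA 1, 2 and 3. The log2 changes of the 4 genes that rest on Ang(1-7) libraries are given with and without Ang(1-7) 2 and 3. Hepatocyte markers were led by the keratin genes Krt8 and Krt18, and Alb, the albumin gene that defines hepatocytes, had only 80 to 550 counts in any library.

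Lcn2, which encodes lipocalin 2, was nearly absent from control libraries. It had 89, 279 and 197 counts in Ang(1-7) libraries 1 to 3, 273, 106 and 82 in PA/OA libraries 1 to 3, and 6, 0 and 1 in controls 1 to 3. Both fatty acid groups lay wholly above the controls, while they overlapped each other. In CPM with trimmed mean scaling over the common transcripts, the scale used for all levels of the 4 genes, Lcn2 was at 3.53, 10.5 and 7.31 in Ang(1-7), at 10.6, 4.14 and 3.18 in PA/OA, and at 0.222, 0 and 0.0383 in control libraries. The count of 0 in control 2 allows a level of up to 0.112 CPM.

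The log2 change of Lcn2 was 6.26 ± 0.97 (SE of the fit) for Ang(1-7) against control and 6.02 ± 0.82 for PA/OA against control. The summed Lcn2 counts of PA/OA, scaled to library totals, were 68.3 times those of controls, with an exact 95% Poisson interval of 32.9 to 171 that covers counting error only. That ratio rests on 461 counts in PA/OA against 7 in controls, 6 of them in control 1. Without control 1 the log2 change of Lcn2 was 8.22 for Ang(1-7) against control and 7.97 for PA/OA against control. It was 5.88 for Ang(1-7) without Ang(1-7) 2, 5.26 without Ang(1-7) 2 and 3, and 5.31 for PA/OA without PA/OA 1. Lcn2 ranked second of 6134 genes by log2 change in Ang(1-7) against control and first of 6213 in PA/OA against control, the contrast the 4 genes were picked on. Every transcript listed for these comparisons had a mean of at least 59.5 and 56.8 counts per library, in that order. With 7 counts in controls, Lcn2 is listed only through its fatty acid libraries, so nothing is read from its rank.

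Lcn2 also varied most within groups. Its CPM spanned 2.97-fold among Ang(1-7) libraries and 3.32-fold among PA/OA libraries. The coefficient of variation was 48.9% and 67.4%, against a median over all genes of 21.8% and 12.1%. That median is not matched for count level, and Lcn2 had only 82 to 279 counts in these libraries. S100a8, the 1 neutrophil marker of 9 that was measured, came to 9.70 to 18.6 CPM of the library total in Ang(1-7), 10.7 to 17.8 in PA/OA and 4.75 to 6.75 in control libraries. In counts it had 329, 533 and 254 in Ang(1-7) 1 to 3 and 278, 446 and 346 in PA/OA 1 to 3. PA/OA 1, the highest of its group for Lcn2, was thus the lowest for S100a8, while Ang(1-7) 2 was the highest of its group for both. The part of S100a8 in the level of Lcn2 was not tested. In bulk RNA, fewer cells of a type and less RNA per cell cannot be told apart.

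**Figure D1:**
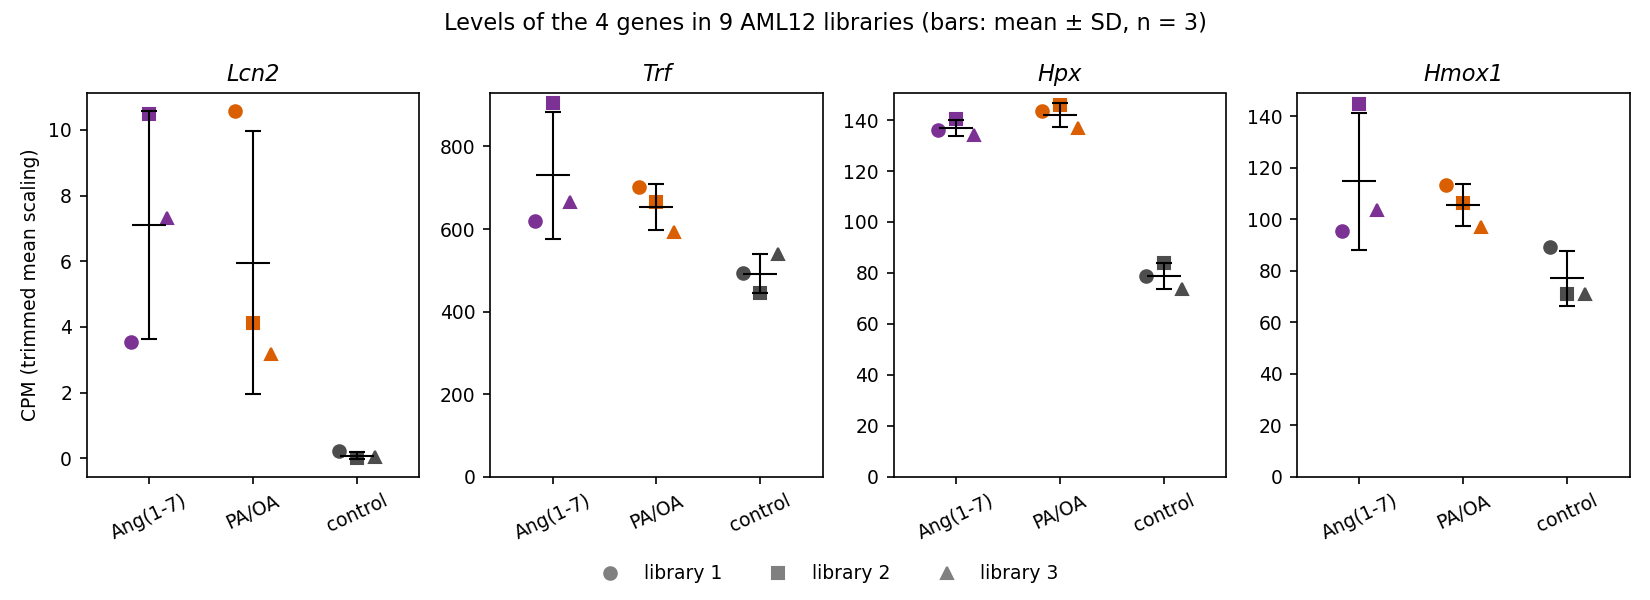
Level of each gene (CPM with trimmed mean scaling, linear axis) in every library of the 3 groups. Symbols mark library numbers, and bars give the mean ± SD of 3 libraries. Lcn2 lies between 0 and 0.222 CPM in controls and above 3 in all other libraries, Hpx is tight within each group, and Ang(1-7) 2 is the highest library for Trf and Hmox1.

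Hpx, which encodes hemopexin, gave the steadiest difference of the 4. It was at 136, 140 and 134 CPM in Ang(1-7), at 143, 146 and 137 in PA/OA, and at 79.0, 83.9 and 73.7 in control libraries. The lowest library of either fatty acid group lay far above the highest control. Group means were 137 ± 3.13 CPM in Ang(1-7), 142 ± 4.70 in PA/OA and 78.9 ± 5.10 in control libraries (SD, n = 3 each). Hpx had a log2 change of 0.78 ± 0.11 for Ang(1-7) against control and of 0.85 ± 0.10 for PA/OA against control, or 1.72-fold and 1.80-fold. Within groups it varied little, with a coefficient of variation of 2.29% in Ang(1-7), 3.31% in PA/OA and 6.46% in control libraries. With Ang(1-7) 2 left out the log2 change against control was 0.77, and with Ang(1-7) 2 and 3 left out it was 0.78.

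Trf, which encodes transferrin, was the most abundant of the 4. It had 619, 905 and 666 CPM in Ang(1-7) libraries, 702, 666 and 593 in PA/OA libraries, and 494, 444 and 539 in controls. Every fatty acid library lay above every control, although PA/OA 3 was only slightly above control 3. The means were 730 ± 153 CPM in Ang(1-7), 654 ± 55.8 in PA/OA and 492 ± 47.3 in control libraries (SD, n = 3 each). The log2 change of Trf was 0.55 ± 0.15 for Ang(1-7) against control and 0.41 ± 0.08 for PA/OA against control. Without Ang(1-7) 2 the log2 change of Trf for Ang(1-7) against control was 0.38, and with Ang(1-7) 2 and 3 left out it was 0.32.

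Hmox1, which encodes the inducible heme oxygenase, showed the closest approach of the groups. It was at 95.6, 145 and 104 CPM in Ang(1-7), at 113, 106 and 97.2 in PA/OA, and at 89.2, 70.8 and 71.0 in control libraries. The groups did not overlap with controls, but control 1 came near the lowest libraries of both fatty acid groups. The log2 change of Hmox1 was 0.56 ± 0.18 for Ang(1-7) against control and 0.45 ± 0.12 for PA/OA against control. Without Ang(1-7) 2 the log2 change of Hmox1 against control was 0.36, and with Ang(1-7) 2 and 3 left out it was 0.30.

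All 4 genes were thus higher in each fatty acid group than in controls, with no overlap of libraries. Such a higher level without overlap was found for 13.2% of 6134 genes in Ang(1-7) against control, where 13.3% were lower without overlap. In PA/OA against control the shares were 12.2% higher and 11.6% lower of 6213 genes. At an adjusted p of 0.05 in the quasi-likelihood test of edgeR, 0.245% of genes were called in Ang(1-7) against control, all of them higher. In PA/OA against control 5.05% were called, 2.82% higher and 2.24% lower. Unadjusted p-values under 0.05 were held by 14.9% and 19.4% of genes in the same comparisons. The median log2 change over all genes was 0.02 and 0.01. Both comparisons share the control libraries, and the 4 genes were picked with the second in view, so nothing is read from their number.

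**Figure D2:**
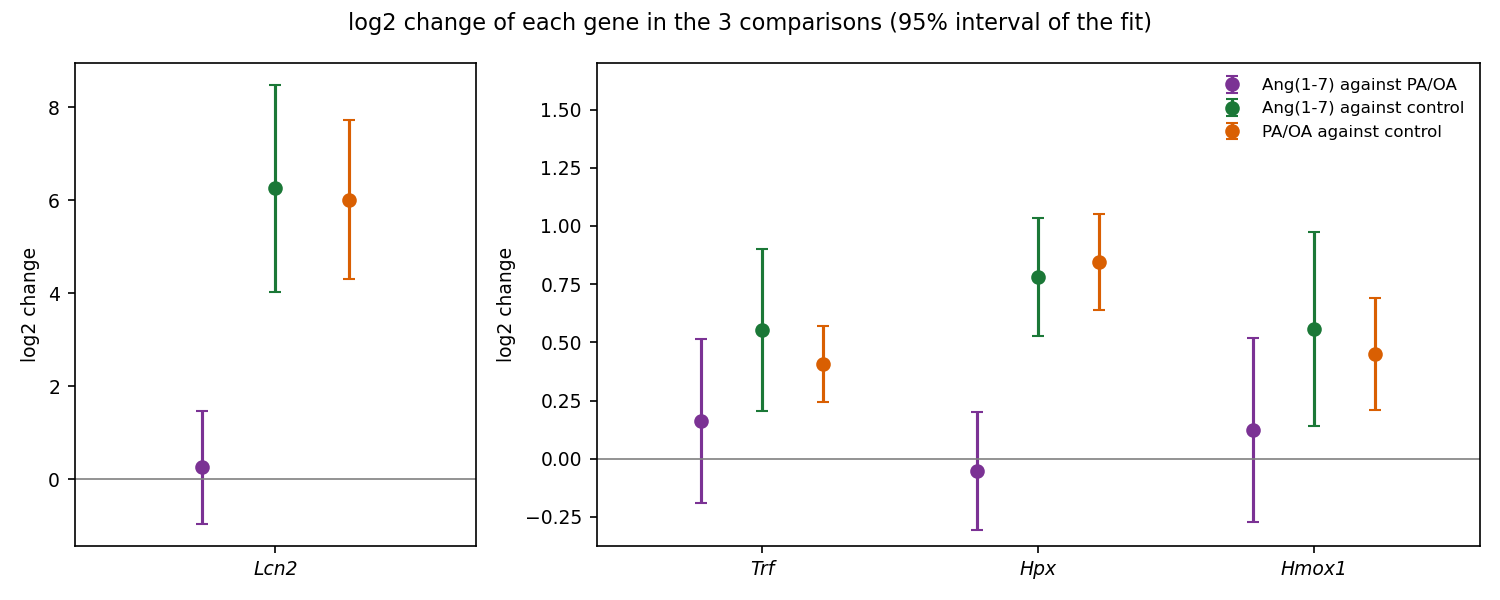
Fitted log2 change of each gene in the 3 comparisons, with its 95% interval; Lcn2 has a panel and scale of its own. The intervals of Ang(1-7) against PA/OA include 0 for all 4 genes, and the 2 comparisons with control share the control libraries.

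Ang(1-7) against PA/OA asked whether the peptide altered what the fatty acid cells expressed. Of the 4 genes 0 were called, where 0% of 9261 genes tested were called in edgeR's quasi-likelihood test. At an unadjusted p under 0.05 stood 236 genes, or 2.55%, and DESeq2 called 5 genes. The libraries overlapped for each of the 4, as for most genes: 4.6% were higher and 6.37% lower without overlap. Selection on PA/OA against control touches this comparison too, since the PA/OA libraries are shared.

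Hpx had the smallest value of the 4, with a log2 change of -0.05 ± 0.11 (edgeR adjusted p = 0.975) and a 95% interval of -0.31 to 0.20, or 0.809-fold to 1.15-fold. Trf had a log2 change of 0.16 ± 0.16 (edgeR adjusted p = 0.965) with an interval of -0.19 to 0.51. Hmox1 had a log2 change of 0.12 ± 0.18 (edgeR adjusted p = 0.967) with an interval of -0.27 to 0.52. For Lcn2 the log2 change was 0.25 ± 0.54 (edgeR adjusted p = 0.975), and its interval ran from -0.96 to 1.47, or 0.515-fold to 2.76-fold. The data therefore bound a difference in Hpx closely and one in Lcn2 loosely. The authors' deposited table gave log2 fold changes of 0.27 for Lcn2, 0.18 for Trf, -0.04 for Hpx and 0.14 for Hmox1, with unadjusted p-values of 0.572, 0.248, 0.761 and 0.42.

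The sign of 3 of these small differences rested on Ang(1-7) 2. Without that library the log2 change of Ang(1-7) against PA/OA was -0.13 for Lcn2, -0.01 for Trf, -0.07 for Hmox1 and -0.06 for Hpx. With Ang(1-7) 2 and 3 both left out, a setting chosen after the data were seen, it was -0.76 for Lcn2, -0.08 for Trf, -0.14 for Hmox1 and -0.06 for Hpx. No member was called in either fit. Blood markers, of which 3 of 7 were measured, summed to 4.70 and 3.13 CPM in Ang(1-7) 2 and 3, 0.364 in Ang(1-7) 1 and 0.384 to 1.29 in PA/OA libraries. The hemoglobin gene Hbb-bs had 83 and 48 counts in Ang(1-7) 2 and 3 and 0 in the other 4 libraries. The blood marker Slc4a1 ran otherwise, with 20, 18 and 9 counts in Ang(1-7) 2, 3 and 1. It had 10, 12 and 33 counts in PA/OA 1, 2 and 3. Macrophage markers, 4 of 12 measured, summed to 14.9 and 10.0 CPM in Ang(1-7) 2 and 3, 5.33 in Ang(1-7) 1 and 4.46 to 7.76 in PA/OA libraries. Among them C1qa and C1qb had 0 counts in Ang(1-7) 1 and in the PA/OA libraries. Lyz2 had 180, 75 and 42 counts in Ang(1-7) 2, 3 and 1 and 106, 35 and 68 in PA/OA 1, 2 and 3. Cd68 had 159, 137 and 90 counts in Ang(1-7) 2, 3 and 1 and 96, 77 and 126 in PA/OA 1, 2 and 3. The part of these transcripts in the levels of the 4 genes was not tested.

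**Figure D3:**
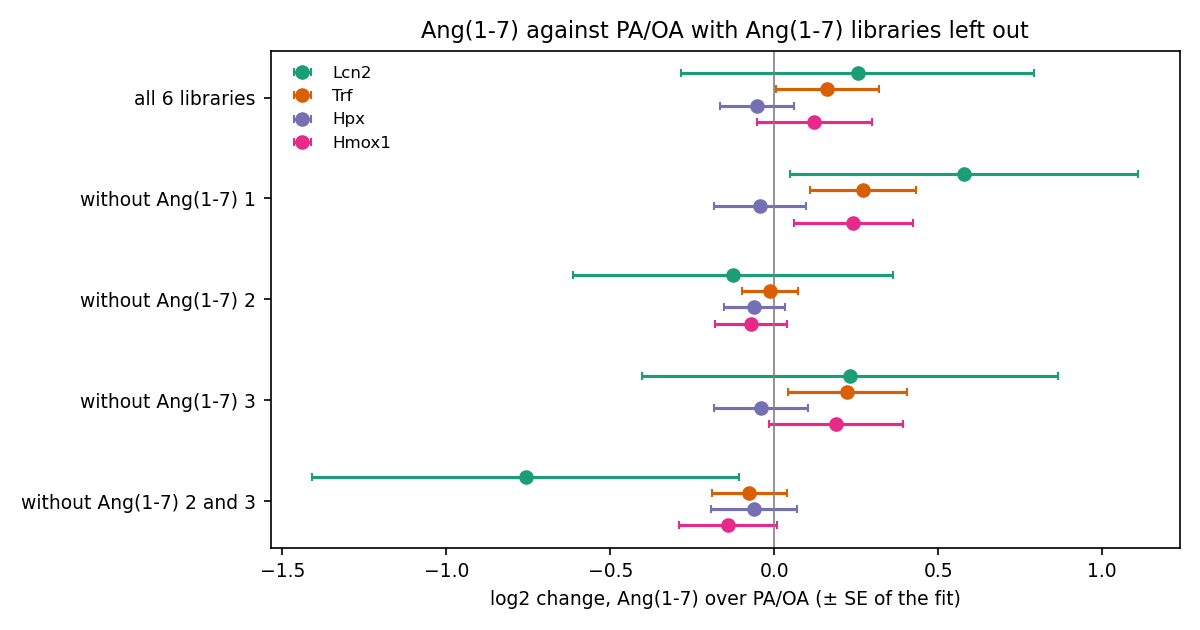
Fitted log2 change of Ang(1-7) against PA/OA (± SE of the fit) for the 4 genes with all 6 libraries and with Ang(1-7) libraries left out. Trf, Hmox1 and Lcn2 change sign without Ang(1-7) 2, while Hpx stays close to 0 in all 5 fits.

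The same 2 libraries led for 3 of the 4 genes. Among the 6 fatty acid libraries, Ang(1-7) 2 and PA/OA 1 held the first 2 places for Trf and for Hmox1, in that order, and the first 2 places for Lcn2 in the other order. PA/OA 3 was the lowest for Lcn2 and Trf and next to the lowest for Hmox1. Hpx ran otherwise, with PA/OA 2 highest and Ang(1-7) 3 lowest in a range of 134 to 146 CPM. Over all 9 libraries Pearson's r of log2 CPM was 0.93 between Trf and Hmox1 and 0.78 between Trf and Hpx, and without Ang(1-7) 2 it was 0.87 and 0.86 over 8 libraries. Over the 6 fatty acid libraries alone it was 0.99 between Trf and Hmox1, 0.31 between Trf and Hpx and 0.23 between Lcn2 and Hpx. These r are a description of libraries that fall into groups.

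Per kilobase of transcript, using GENCODE lengths matched by RefSeq accession, Trf came first with 284 ± 59.6 CPM per kb in Ang(1-7), 254 ± 21.7 in PA/OA and 191 ± 18.4 in control libraries. Hpx followed with 91.3 ± 2.09 CPM per kb in Ang(1-7), 94.8 ± 3.14 in PA/OA and 52.6 ± 3.40 in control libraries. Hmox1 had 73.1 ± 16.9 CPM per kb in Ang(1-7), 67.3 ± 5.11 in PA/OA and 49.1 ± 6.74 in control libraries. In controls the difference between Hpx and Hmox1 was under the SD of Hmox1 and slightly over that of Hpx. Lcn2 stayed far below with 7.76 ± 3.80 CPM per kb in Ang(1-7), 6.52 ± 4.39 in PA/OA and 0.0948 ± 0.130 in control libraries (SD, n = 3 for each value). Across groups, the order for each gene put both fatty acid groups above control. Between the fatty acid groups the difference was under the larger SD for Lcn2, Trf and Hmox1, and for Hpx it was slightly over both SDs although the libraries overlapped.

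The genes whose log2 CPM followed each member most closely were found over the 9 libraries among 6032 others. For Lcn2 they were the chemokine gene Ccl2 (r = 0.986), Tmem176a (0.982) and the complement gene C1ra (0.981). For Hpx they were Slfn2 (r = 0.987), the central complement gene C3 (0.984) and the chemokine gene Cxcl3 (0.982). For Trf they were Fam160b1 (r = 0.982), the scaffold gene Akap12 (0.977) and Pkhd1 (0.968). For Hmox1 they included the lysosomal channel gene Mcoln1 (r = 0.981) and the membrane protein gene Stom (0.978). C3 averaged 234 ± 20.1 CPM in Ang(1-7), 216 ± 18.2 in PA/OA and 45.8 ± 2.07 in control libraries, and Mcoln1 averaged 113 ± 17.4 CPM in Ang(1-7), 106 ± 0.309 in PA/OA and 87.5 ± 8.02 in control libraries (SD, n = 3 each). None of these neighbours was shared between members. The 9 points share the 3 groups and their libraries, and these r are a description.

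Around the 4 genes, 139 other symbols were followed in 9 lists, and those not in a table were not analysed here. Of these symbols, 100 were in the lists proper to iron and heme. The others were in lists of the NRF2 and BACH1 axis and of acute phase regulators. In PA/OA against control 76 of the 139 were measured. By edgeR, 2 rose, 0 fell and 74 had no call, or 2.63% called against 5.05% of all genes. The median log2 change of the 76 was 0.02, against 0.01 over all genes. Both genes that rose come from the list of acute phase regulators. Cebpd, a C/EBP transcription factor gene, had 309, 207 and 152 counts in PA/OA and 85, 69 and 73 in control libraries, a log2 change of 1.60 ± 0.38 (edgeR adjusted p = 0.0168). Il6st, the shared receptor chain of the interleukin 6 family, averaged 353 ± 19.7 CPM in PA/OA and 286 ± 10.5 in control libraries (SD, n = 3), a log2 change of 0.31 ± 0.07 (edgeR adjusted p = 0.0172). With DESeq2 the count of called list genes was 7 of 76, where 533 of 6213 genes in all were called, a similar share. The count of called list genes was 0 in a fit of all 9 libraries, where 33 of all genes were called. It was 0 without control 1 or PA/OA 2 and 1 without control 2, PA/OA 1 or PA/OA 3. Cebpd was not called without control 1 (edgeR adjusted p = 0.0637), control 2 (0.0535), PA/OA 1 (0.0993) or PA/OA 2 (0.0501), nor Il6st without control 1 (0.106), PA/OA 2 (0.102) or PA/OA 3 (0.0546).

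**Figure D4:**
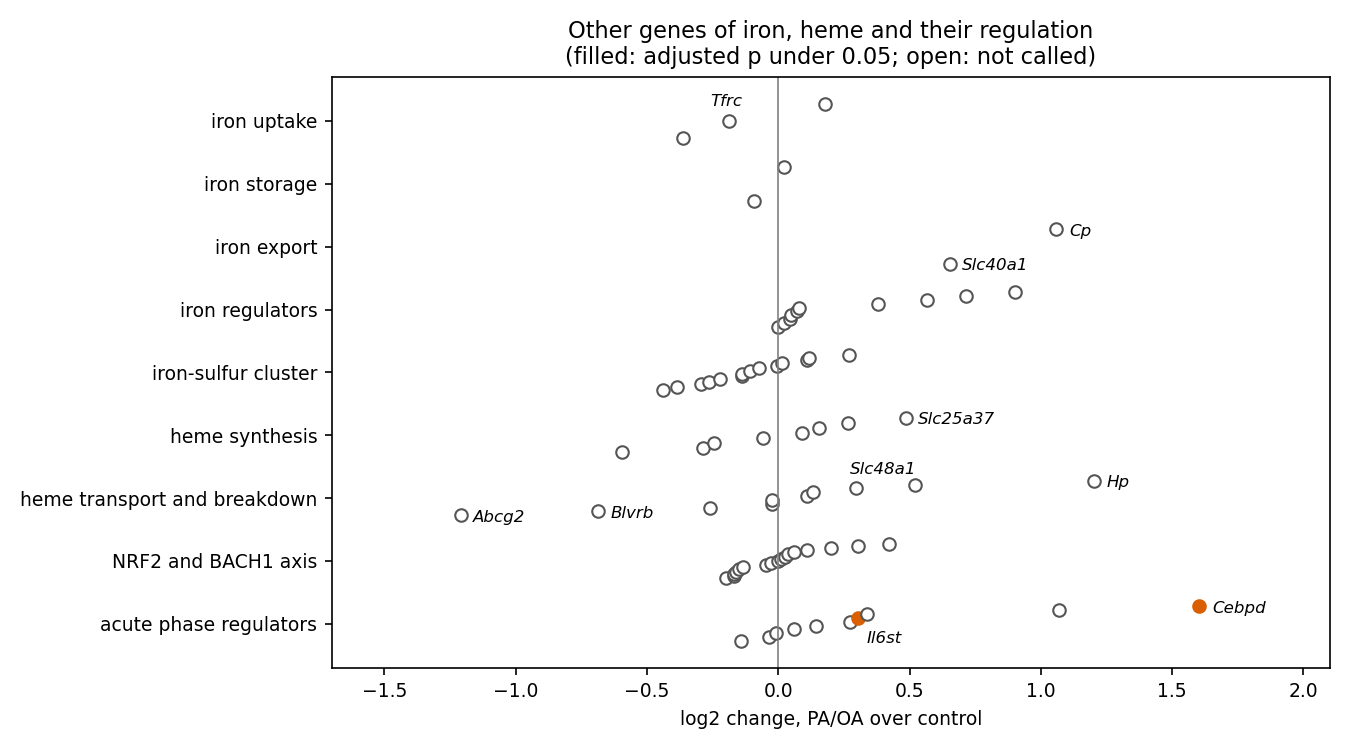
Fitted log2 change of PA/OA over control for the 76 other measured genes, by list. Filled points passed an adjusted p of 0.05, which only Cebpd and Il6st did; open points for the plasma protein genes Hp and Cp lie furthest right among the genes of iron and heme proper.

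None of the 49 measured genes of the 7 lists proper to iron and heme was called in PA/OA against control by edgeR. Of the 49, 26 had a log2 change above 0, with a median of 0.02, and 7 were higher and 5 lower without overlap of libraries, against 12.2% and 11.6% of all genes. The highest log2 changes of the 49 were those of Hp and Cp. Hp, which encodes the hemoglobin-binding haptoglobin, was at 9.48 ± 0.983 CPM in PA/OA and 4.12 ± 1.53 in control libraries (SD, n = 3). Its log2 change of 1.20 ± 0.35 missed the threshold (edgeR adjusted p = 0.0513). Cp, the gene of the ferroxidase ceruloplasmin, chosen for mention once its values were known, was at 9.39 ± 2.41 CPM in PA/OA and 4.50 ± 1.37 in control libraries, a log2 change of 1.06 ± 0.35 (edgeR adjusted p = 0.0875). DESeq2, which called 533 of all genes in this comparison, called both, with adjusted p = 0.014 for Hp and 0.0382 for Cp. The iron exporter gene Slc40a1 had a log2 change of 0.65 ± 0.50 (edgeR adjusted p = 0.519), which was 0.36 without control 1 and 1.35 without control 2.

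Of 3 uptake and 2 storage genes measured, edgeR called 0. Tfrc, the transferrin receptor gene, averaged 184 ± 20.9 CPM in PA/OA and 209 ± 21.1 in control libraries, a log2 change of -0.19 ± 0.10 (edgeR adjusted p = 0.303). Ftl1, a ferritin light chain gene whose reads could be shared with near-identical copies, had a log2 change of 0.02 ± 0.06. The other log2 changes were -0.36 ± 0.31 for Steap4 and 0.18 ± 0.29 for Steap2, both metalloreductase genes, and -0.09 ± 0.11 for Pcbp1, an iron chaperone gene. Fth1, Hamp and Cebpb were not analysed here. Among iron regulators, Aco1, the gene of iron regulatory protein 1, had a log2 change of 0.00 ± 0.08 and Ireb2, that of iron regulatory protein 2, one of 0.57 ± 0.41, both not called. Ireb2 was at 0.23 without PA/OA 2 and at 0.85 without PA/OA 1.

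By edgeR, genes of heme synthesis, transport and breakdown gave no call either, while DESeq2 called Hp, as above, and Slc48a1 (adjusted p = 0.0237). Alas1, the first enzyme of heme synthesis in liver, had a log2 change of 0.16 ± 0.33, and Blvrb, a biliverdin reductase gene, one of -0.69 ± 0.39, which was -0.41 without control 1 and -1.01 without control 3. The heme transporter gene Slc48a1 (0.30 ± 0.09, edgeR adjusted p = 0.0656) and Abcg2, an exporter that carries porphyrins (-1.21 ± 0.45, edgeR adjusted p = 0.128), were named after their values were seen. Nfe2l2 and Bach1, stress regulators of Hmox1, were not called by edgeR, nor was Nfe2l2 by DESeq2. Nfe2l2, which encodes its activator NRF2, had a log2 change of 0.20 ± 0.08 (edgeR adjusted p = 0.165), and Bach1, its repressor, one of -0.03 ± 0.57. Gclm, an NRF2 target named after its values were seen, had 0.31 ± 0.10 (edgeR adjusted p = 0.0698). Stat3, a transcription factor gene of the acute phase, had -0.03 ± 0.49. Of 17 measured genes of the NRF2 and BACH1 list edgeR called 0 and DESeq2 called Gclm (adjusted p = 0.0417), with a median log2 change of 0.00. Of the 14 measured genes of iron-sulfur cluster assembly 0 were called by edgeR, where 5.05% of all genes were, with a median of -0.12, and 4 were lower without overlap, against 11.6% of all genes. Of the 10 measured acute phase regulators edgeR called Cebpd and Il6st, with a median of 0.21. Over all genes 5.05% were called and the median was 0.01. Each of these calls was lost in several fits with a library left out, as given above. DESeq2 also called Nfkbia, an inhibitor of NF-kB named for that call (log2 change 0.27, adjusted p = 0.0277).

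In Ang(1-7) against control, 0 of 75 measured genes were called by edgeR, where 0.245% of all genes were, and DESeq2 called 1, Il6st. Without Ang(1-7) 2, 8 were called, where 624 of all genes were. With all 6 libraries 75 and 6134 genes were measured, so the lists were called at about the share of all genes. Nothing is read from the number of list genes called, and these 8 are named because that fit called them. Hp (log2 change 1.49), Cp (1.38), Il6st (0.38) and Nfe2l2 (0.27) rose in that fit. Glrx5 and Fam96b, both of iron-sulfur cluster assembly, Txn1, a thioredoxin gene, and Tkt, of the pentose phosphate pathway, fell by 0.35, 0.48, 0.23 and 0.35 on the log2 scale. With all 6 libraries the log2 change was 1.39 ± 0.37 for Hp (edgeR adjusted p = 0.173), 1.15 ± 0.39 for Cp (0.245), 0.49 ± 0.11 for Il6st (0.139) and 0.54 ± 0.19 for Nfe2l2 (0.262). With all 6 it was -0.38 ± 0.11 for Glrx5 (edgeR adjusted p = 0.175), -0.45 ± 0.15 for Fam96b (0.223), -0.28 ± 0.10 for Txn1 (0.245) and -0.25 ± 0.11 for Tkt (0.353).

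In Ang(1-7) against PA/OA, 0 of 97 measured genes were called by edgeR and 0 by DESeq2, and the median log2 change was -0.05 against -0.01 over all genes. Cebpd averaged 4.43 ± 2.11 CPM in Ang(1-7) and 8.64 ± 3.09 in PA/OA (SD, n = 3), a log2 change of -0.96 ± 0.44 (edgeR adjusted p = 0.965), and -0.64 without Ang(1-7) 2 and -0.41 without Ang(1-7) 2 and 3. Hp had a log2 change of 0.20 ± 0.26 and Cp of 0.05 ± 0.32, and without Ang(1-7) 2 these were 0.30 and 0.28. Alas1 had 0.74 ± 0.53, and -0.29 without Ang(1-7) 2, and Nfe2l2 had 0.35 ± 0.20, and 0.08 without it. Maff, a small MAF partner of BACH1 and NRF2, had -0.69 ± 0.23, and Abcg2 had 0.78 ± 0.37, both named after their values were seen. Without Ang(1-7) 2 and 3 these were -0.43 and 0.83. None of these was called. Each comparison lists its own transcripts, so gene sums can differ between comparisons. In PA/OA libraries Abcg2 averaged 2.99 CPM here and 2.17 in PA/OA against control, and Maff averaged 31.0 and 26.7. Their log2 changes are therefore not to be set side by side across comparisons. For Ang(1-7) against control Abcg2 had a log2 change of -0.56 ± 0.47. Of the other genes fixed for naming, Nfkbiz, a regulator of NF-kB targets that include Lcn2, was lowest with -1.24 ± 1.02, on 11, 9 and 10 counts in Ang(1-7) and 36, 27 and 7 in PA/OA libraries. Stat3 was highest with 0.79 ± 0.57, on 67, 254 and 95 counts in Ang(1-7) and 68, 47 and 119 in PA/OA libraries, so that only Ang(1-7) 2 lay above the PA/OA range.

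Tfrc and Ftl1 were lowest in the library in which Trf and Hmox1 were highest. Tfrc was at 189, 97.1 and 186 CPM in Ang(1-7), 162, 188 and 203 in PA/OA, and 204, 232 and 191 in control libraries. Ftl1 was at 7452, 5367 and 7871 CPM in Ang(1-7) and between 7031 and 8624 in the other 6 libraries. Nfe2l2 was at 463, 786 and 500 CPM in Ang(1-7), 503, 421 and 448 in PA/OA, and 357, 420 and 415 in control libraries. Of the 9 libraries, Ang(1-7) 2 was thus the lowest for Tfrc and Ftl1 and the highest for Nfe2l2. These extremes rest on that library alone, which was unlike the others over all genes (r = 0.917 to 0.937). The share of all genes for which it was the extreme library was not counted, so no link between these genes is read from it. The log2 change of Tfrc for Ang(1-7) against PA/OA was -0.23 ± 0.23 with that library and 0.03 without it.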

How the data were processed

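RNA of 9 AML12 samples was measured, 3 per group. The authors deposited whole-number counts per RefSeq transcript in 3 tables, each for 1 pair of groups, with their log2 fold change and p-value, whose test is not given in the sources used here. The submitters' processing notes name bcl2fastq, HISAT2 2.2.5, HTSeq 0.11.2 and the build hg19, although the transcripts are mouse. Counts of a transcript were identical wherever tables shared it. The tables held 6828 to 14553 transcripts, and the depth of the common ones was 24578113 to 28529393 counts.

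The members and lists were chosen with earlier results of these data known. Counts were summed per gene symbol. Each table was fitted on its own in R 4.3.3 by the quasi-likelihood test of edgeR 4.0.16, with TMM scaling, edgeR's default filter on low counts, group as the only term and Benjamini-Hochberg adjustment over 6134 to 9261 genes (threshold 0.05). SE is the size of the log2 change over the root of F. Levels use TMM over the 6674 transcripts in all tables; levels of genes other than members, their neighbours and the library values of Tfrc, Ftl1 and Nfe2l2 use the table of the comparison. Neighbours used a prior count of 2 and a mean of at least 50 counts. Named were the members, list genes that were called, 15 fixed list genes and the 3 nearest neighbours of each member (1 is not reported here), besides genes said to be chosen on their values. DESeq2 1.42.0, another scaling, no filter, 1 fit of all samples, curated transcripts, the replicate number as a block and each library left out were alternatives. The fit was tested on simulated data. Intervals of counts cover counting error only, as no molecular identifiers are named. The labels give no batch.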

Additional observations from a re-analysis of the deposited data

How the results depend on the processing

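In the comparisons with control the 4 genes were higher under every alternative run, and in Ang(1-7) against PA/OA none of the 4 was called under any (adjusted p of 0.719 to 1). The 4 were picked with their higher levels in PA/OA than in control known, and every alternative refits the same libraries. Their shared direction against controls is therefore a description and not support. The replicate numbers did not pair the libraries (r of same-numbered deviations -0.04 to 0.03). With the replicate block the fit called 0, 10 and 303 genes, against 0, 15 and 314 without it. The order is Ang(1-7) against PA/OA, Ang(1-7) against control and PA/OA against control. The block turned Bach1 in PA/OA against control to 0.34. DESeq2 called 5, 259 and 533 genes in the same order, and 0, 1 and 7 of the pathway genes. One fit of all 9 libraries called 0, 100 and 33 genes, and 1 pathway gene in Ang(1-7) against control and 0 in PA/OA against control, where it gave Aco1 0.0032. Curated transcripts alone gave 27 genes in Ang(1-7) against control and 0.00070 for Aco1 in PA/OA against control. Without Ang(1-7) 2 and 3, an alternative chosen after seeing the data, 229 genes and 2 pathway genes were called in Ang(1-7) against control, and log2 changes there were 5.26 for Lcn2, 0.32 for Trf and 0.30 for Hmox1. Against PA/OA the same setting gave -0.76 for Lcn2, -0.076 for Trf, -0.14 for Hmox1, 0.036 for Tfrc and -0.26 for Alas1; the lone Ang(1-7) library is there assumed to vary like the PA/OA libraries. With 1 library left out at a time, 0 to 18 genes were called in Ang(1-7) against PA/OA (18 without Ang(1-7) 1). In Ang(1-7) against control 4 to 624 were called, with 4 without any 1 control, 32, 624 and 7 without Ang(1-7) 1, 2 and 3, and 0 to 8 pathway genes. In PA/OA against control 99 to 397 were called, namely 99 when control 1 was left out, 200 for control 3, 147 for PA/OA 2 and 134 for PA/OA 3, and 0 to 3 pathway genes. The log2 ranges for Ang(1-7) against PA/OA were -0.13 to 0.97 for Lcn2 (-0.05 without PA/OA 3), -0.013 to 0.27 for Trf, -0.072 to 0.24 for Hmox1, -0.20 to 0.28 for Cp, -0.37 to 0.034 for Tfrc and -0.29 to 1.07 for Alas1. Lcn2 ranged over 5.68 to 8.22 for Ang(1-7) against control and 5.31 to 7.97 for PA/OA against control. Genes near 0 in PA/OA against control changed sign, with -0.38 to 1.04 for Bach1, -0.079 to 0.046 for Aco1, -0.47 to 0.22 for Stat3, -0.020 to 0.41 for Alas1 and -0.079 to 0.079 for Ftl1. The cause of these differences was not tested. Depth limits Lcn2 in controls, with 7 counts in all.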
